A study of Mus musculus with 6 samples.

Results

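Disease-associated microglia genes are a set of genes that microglia, the resident macrophages of the brain, raise around amyloid plaques, dying neurons and damaged myelin. Here 10 of them were followed in the hypothalamus of *Fmr1* KO mice: *Trem2*, *Tyrobp*, *Apoe*, *Axl*, *Cst7*, *Clec7a*, *Itgax*, *Spp1*, *Grn* and *Cd68*. They were taken by name, although earlier results of these data were known when the list was chosen. All 10 had a probe among the 787 analysed. RNA came from 3 *Fmr1* KO females (FVB.129P2-Fmr1tm1Cgr/J) and 3 congenic FVB wild type females (WT), each in diestrus at 8 weeks of age and given no treatment. The *Fmr1* mutation is germline, so all cells of the KO animals lack the gene and an effect cannot be assigned to microglia. Dissected hypothalamus was counted on the nCounter Mouse Neuroinflammation Panel with added hypothalamic probes, an assay that counts colour-coded probes hybridised to RNA without amplification, in 1 lane of 50 ng RNA per mouse.

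In the textbook account, microglia leave the homeostatic state in an early and a later phase. In the early phase *Apoe* and *Tyrobp* rise while homeostatic genes such as *P2ry12*, *Tmem119* and *Cx3cr1* fall. In the later phase, which needs the lipid-sensing receptor TREM2, genes such as *Axl*, *Cst7*, *Clec7a*, *Itgax* and *Spp1* rise. TREM2 has no signaling tail of its own and signals through the adaptor DAP12, the product of *Tyrobp*, whose ITAM motif recruits the kinase SYK. Since the samples were whole tissue, fewer cells of a type and less RNA per cell cannot be told apart.

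The lanes held 165514 to 339934 counts, and 601 probes with over 20 raw counts in at least 3 of the 6 lanes were tested. Normalized counts are raw counts times the factor that the authors applied to each lane, which was 1.72 for *Fmr1* KO replicate 2, whose total was the lowest, and 0.767 to 1.13 for the other mice. That factor also scales up the counts of low probes: the median of the 186 untested probes was 20.6 normalized counts in this lane and 9.20 to 11.1 elsewhere. All 12 hypothalamic peptide genes checked, among them *Oxt*, *Avp* and *Pomc*, passed the count minimum, as did all 11 homeostatic or pan-microglia markers with a probe. *Fmr1* itself was not analysed here, the WT mice filled the first 3 lanes and the *Fmr1* KO mice the last 3, and position in the run and genotype cannot be told apart.

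None of the 7 disease-associated microglia genes that could be tested differed between *Fmr1* KO and WT hypothalami at an adjusted p under 0.05. The other 3 of the 10 members, *Cst7*, *Clec7a* and *Itgax*, did not pass the count minimum. Over all tested probes 0.832% passed this threshold in edgeR's quasi-likelihood test. At an unadjusted p under 0.05 no member was higher or lower, where 5.66% of all tested probes were higher and 2.83% were lower. The median log2 fold change (also written log2 ratio, always *Fmr1* KO over WT) was 0.02 over the 7 tested members and 0.01 over all tested probes, with 4 members above 0 and 3 below. The smallest adjusted p of a member was 0.726, for *Cd68*. The 2 members with the largest log2 fold changes were *Cd68* and *Tyrobp*, and the 95% intervals of all 7 included 0.

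**Figure D1:**
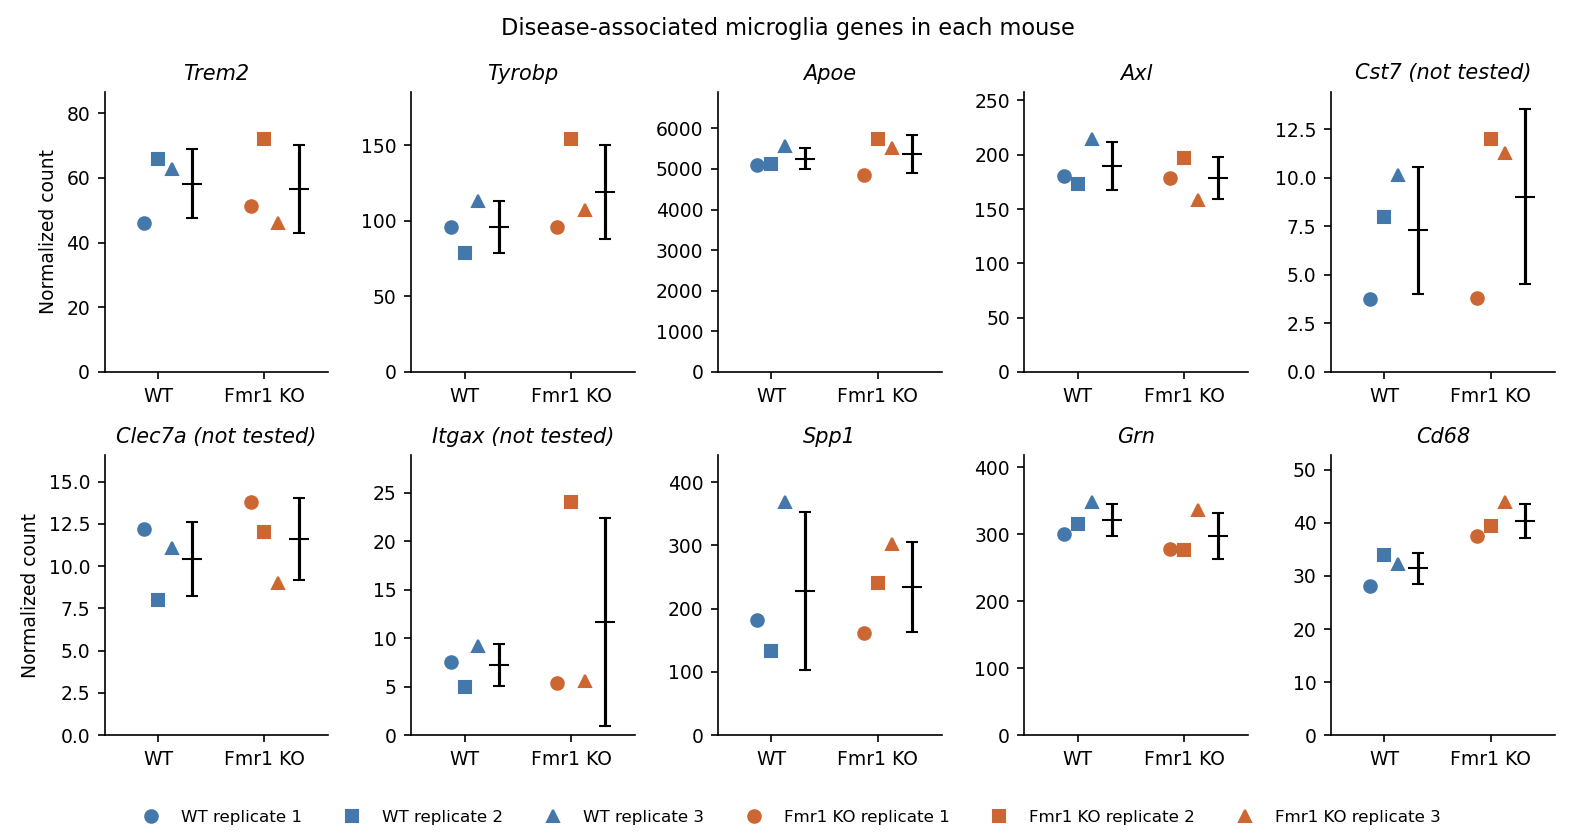
Normalized counts of the 10 genes in each mouse, with 1 panel and 1 linear axis from 0 per gene, and the mean ± SD of 3 mice as a black bar beside each group. *Cd68* is the only gene whose 3 *Fmr1* KO mice (37.6 to 43.9) all lie above the 3 WT mice (28.1 to 33.9), and *Spp1* spreads from 134 to 369 within WT alone.

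*Trem2*, the receptor, had 46.0, 65.8 and 62.7 normalized counts in WT replicates 1 to 3, against 51.4, 72.1 and 46.2 in *Fmr1* KO replicates 1 to 3. Both groups thus spanned nearly the same range, with a mean ± SD of 58.1 ± 10.7 in WT and 56.5 ± 13.7 in *Fmr1* KO mice (n = 3 each). On the log2 scale *Fmr1* KO mice differed from WT by -0.08 ± 0.22 (standard error), with an edgeR adjusted p of 0.966. Expressed as a fold change, the 95% interval ran from 0.676 to 1.32. Raw *Trem2* counts were 41 to 68, so counting alone gives an error of about 13.4% in a lane.

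*Tyrobp*, encoding the adaptor, had 95.7, 78.7 and 113 normalized counts in WT mice, against 95.8, 154 and 107 in *Fmr1* KO mice. The group means were 95.9 ± 17.3 and 119 ± 31.2 (SD, n = 3 each), and the ranges overlapped. *Fmr1* KO replicate 2, the lane with the factor of 1.72, was the highest, and the other *Fmr1* KO mice lay within the WT range. The log2 fold change was 0.27 ± 0.20 (standard error), with an edgeR adjusted p of 0.766. The fold change had a 95% interval of 0.884 to 1.64. Without *Fmr1* KO replicate 2 the log2 fold change was 0.07. The ratio of raw *Trem2* to *Tyrobp* counts, which needs no lane factor, was 0.480, 0.835 and 0.553 in WT mice, against 0.536, 0.467 and 0.432 in *Fmr1* KO mice. This ratio was looked at after the values were seen and was not tested. The groups overlapped, and WT replicate 2 stood above the other mice.

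*Apoe*, encoding the lipid carrier apolipoprotein E, was the member with the highest counts and the narrowest interval. It had 5094, 5112 and 5554 normalized counts in WT mice, against 4849.7, 5747 and 5525 in *Fmr1* KO mice. The log2 fold change was 0.03 ± 0.08 (standard error), with an edgeR adjusted p of 0.951, and the 95% interval of the fold change was 0.903 to 1.16. In the brain most *Apoe* RNA is made by astrocytes, so in whole tissue its level does not stand for microglia. Of 7 tested astrocyte markers none passed the adjusted threshold, and 3 lay above 0 and 4 below. Those with the smallest p were *Slc1a3* (log2 fold change -0.18), *Gja1* (-0.20), *Sox9* (-0.12) and *Agt* (0.10), encoding a glutamate transporter, a gap junction protein, a transcription factor and angiotensinogen. The first pair were lower at an unadjusted p under 0.05, as were 2.83% of all tested probes. The summed level of the 7 astrocyte probes was 8849 to 9504 normalized counts in WT and 7806 to 8579.8 in *Fmr1* KO mice, and most of this sum came from *Slc1a3* (WT mean 4191) and *Gja1* (WT mean 2966), so that it does not stand for the whole list. The part of astrocytes in the *Apoe* value was not tested.

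*Cd68*, a lysosomal membrane protein of phagocytes, had 28.1, 33.9 and 32.3 normalized counts in WT mice, against 37.6, 39.5 and 43.9 in *Fmr1* KO mice. The lowest *Fmr1* KO value exceeded the highest WT value, an arrangement seen in 6.82% of all tested probes, while the reverse was also seen in 6.82%. The means were 31.4 ± 2.96 and 40.3 ± 3.26 (SD, n = 3 each), giving a fitted log2 ratio of 0.35 ± 0.21 (standard error), with an edgeR adjusted p of 0.726. The 95% interval of the fold change was 0.927 to 1.76, so neither no change nor a rise of over 1.5-fold lay outside it.

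The raw counts behind *Cd68* were low, at 30, 34 and 35 in the WT lanes and 49, 23 and 39 in the *Fmr1* KO lanes. Counting alone gives an error of about 16.9% at this level, and the normalized values varied by only 9.43% (WT) and 8.08% (*Fmr1* KO) between mice. A test that takes its error from these 3 values per group alone, as the methods' t-test does, gave an unadjusted p of 0.0257 for *Cd68* and 0.600 after Benjamini-Hochberg adjustment. With TMM lane sizes the groups overlapped, with the highest WT mouse at 35.3 and the lowest *Fmr1* KO mouse at 35.0, and they also overlapped with median-ratio lane sizes and with lane sizes from homeostatic microglia markers. After subtraction of the mean Y-linked count of each lane as background, the log2 fold change was 0.62 (adjusted p = 0.701 from edgeR).

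*Grn*, encoding the lysosomal and secreted protein progranulin, had 301, 316 and 348 normalized counts in WT mice, against 278, 276 and 337 in *Fmr1* KO mice. *Fmr1* KO replicates 1 and 2 lay below every WT mouse and replicate 3 lay among them. The log2 fold change was -0.11 ± 0.11 (standard error), with an edgeR adjusted p of 0.847. The fold change had a 95% interval of 0.784 to 1.09. Without *Fmr1* KO replicate 3 the remaining *Fmr1* KO mice were below all WT mice, with a log2 fold change of -0.21 (adjusted p = 0.713 from edgeR). How many of all tested probes were arranged this way without that mouse was not computed. *Grn* is also made by neurons, which are not separated from microglia in this tissue.

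*Axl*, a TAM-family receptor tyrosine kinase that helps phagocytes take up dying cells, had 180.1, 173 and 215 normalized counts in WT mice, against 179, 197 and 159 in *Fmr1* KO mice. The groups overlapped, and the log2 fold change was -0.10 ± 0.13 (standard error), with an edgeR adjusted p of 0.916. The 95% interval of the fold change was 0.766 to 1.14. Of the other TAM genes on the panel, the receptor *Mertk* had a log2 ratio of 0.18 and the ligand *Pros1* of -0.20, with adjusted p of 0.787 and 0.766 from edgeR.

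*Spp1*, encoding the secreted matrix protein osteopontin, varied most among the tested members. It had 182, 134 and 369 normalized counts in WT mice, against 161, 240.3 and 303 in *Fmr1* KO mice. The range within WT alone contained every *Fmr1* KO mouse. The coefficient of variation was 54.4% in WT and 30.3% in *Fmr1* KO mice, where counting alone gives about 6.67%, and the SD within groups on the log2 scale (0.62) ranked 8 of the 601 tested probes. The log2 fold change was 0.02 ± 0.33 (standard error), with an edgeR adjusted p of 0.990. The fold change had a 95% interval of 0.613 to 1.68. WT replicate 3 carried the highest *Spp1* count, and without it the log2 fold change was 0.55 with an unadjusted p of 0.0354 and an adjusted p of 0.473 from edgeR.

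The same WT replicate 3 had 1626 raw counts for *Prl*, a pituitary hormone gene, against 4 to 123 in the other lanes. The part of pituitary tissue in the *Spp1* values was not tested.

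*Cst7*, *Clec7a* and *Itgax* had too few counts to be tested. *Cst7*, encoding the cysteine protease inhibitor cystatin F, gave raw counts of 4, 8 and 11 in WT mice, against 5, 7 and 10 in *Fmr1* KO mice. *Clec7a*, encoding the glucan receptor Dectin-1, had 13, 8 and 12 in WT mice, against 18, 7 and 8 in *Fmr1* KO mice. *Itgax*, encoding the integrin CD11c, had 8, 5 and 10 in WT mice, against 7, 14 and 5 in *Fmr1* KO mice. In all 3 genes the groups overlapped. These counts were set against *Kdm5d* and *Uty*, Y-linked genes for which a female mouse has no template, although both have X-linked homologues.

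The 2 Y-linked probes gave 3 to 25 raw counts per lane. *Cst7* and *Clec7a* exceeded the higher of them in 0 of 6 lanes and *Itgax* in 1 of 6, and their mean raw counts were 0.542, 0.795 and 0.590 times the mean of the Y-linked probes. The methods set a limit of detection from negative control probes of the panel. Negative control probes were not analysed here, and the Y-linked probes were used in their place. The deposited column on detection gives 100% of lanes above threshold for each of the 10 members, without the value of that threshold. The ratio of *Itgax* group means, 1.61, came from the 14 raw counts of *Fmr1* KO replicate 2, which became 24.0 after scaling, against 5.37 and 5.63 in the other *Fmr1* KO mice. For these genes a difference between genotypes was not detectable at this depth. The other 7 members exceeded the higher Y-linked probe in 6 of 6 lanes, with *Cd68* the nearest at a mean of 2.53 times the Y-linked mean and *Trem2* next at 4.01 times. *Uty* itself passed the count minimum, so that minimum does not separate every probe from this background.

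**Figure D2:**
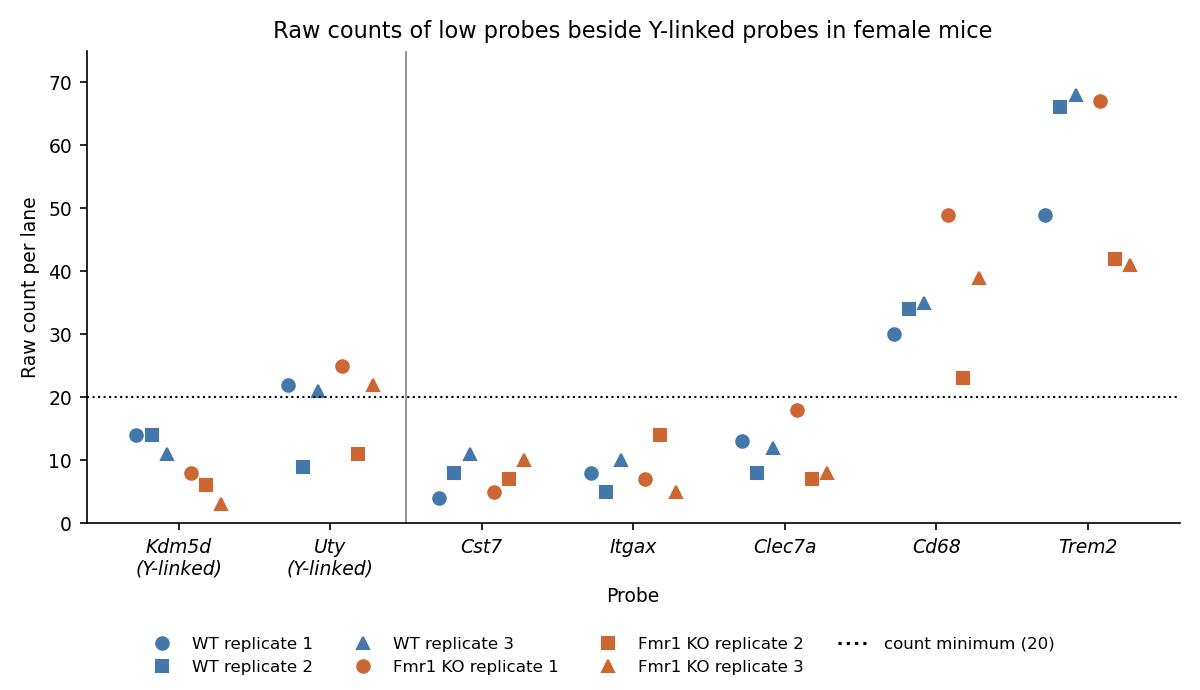
Raw counts per lane of the 5 lowest members beside the Y-linked probes *Kdm5d* and *Uty*, with 3 WT and 3 *Fmr1* KO mice per probe. *Cst7*, *Itgax* and *Clec7a* lie between 4 and 18 counts, under the dotted count minimum of 20 and within the 3 to 25 counts of the Y-linked probes, and *Cd68* and *Trem2* lie above the minimum in every lane.

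With the limits that the methods use, a ratio of group means above 1.2 or below 0.8, *Cd68* (1.28) and *Tyrobp* (1.24) were above the upper limit and none of the 7 tested members was below the lower one. Over all tested probes 15.1% were above 1.2 and 3.49% were below 0.8. The ratios carry no test. Without *Fmr1* KO replicate 2 or without WT replicate 2, *Cd68* alone was past the limits, and without WT replicate 3 *Spp1* joined *Cd68* and *Tyrobp*. The members did not share 1 order over the mice: of the 7 tested, *Trem2*, *Tyrobp* and *Apoe* were highest in *Fmr1* KO replicate 2, *Axl*, *Spp1* and *Grn* in WT replicate 3, and *Cd68* in *Fmr1* KO replicate 3.

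Homeostatic genes, which fall when microglia enter the disease-associated state, were looked at beside the members. The list also held pan-microglia markers, so not every gene in it is one that falls. All its genes are called homeostatic markers here. Of 16 listed genes 11 had a probe, all 11 were tested, and none passed the adjusted threshold or an unadjusted p under 0.05. Their median log2 fold change was -0.05, with 4 above 0 and 7 below. The purinergic receptor gene *P2ry12* had a log2 ratio of -0.06 ± 0.13 (standard error), the surface marker gene *Tmem119* -0.18 ± 0.12 (standard error) and the fractalkine receptor gene *Cx3cr1* -0.18 ± 0.12 (standard error). *Itgam*, encoding the integrin CD11b, had -0.30 ± 0.18 (standard error) and *Fcrls*, an Fc receptor-like gene of microglia, 0.49 ± 0.32 (standard error). The adjusted p of these 5 genes was 0.719 to 0.9497 from edgeR. Raw *Fcrls* counts were 17 to 40, near the 3 to 25 of the Y-linked probes. Its highest normalized count (44.6) was in *Fmr1* KO replicate 2, the lane with the factor of 1.72. The summed level of the 11 markers was 1373 to 1587 normalized counts in WT and 1328 to 1560.3 in *Fmr1* KO mice, and these ranges overlapped.

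**Figure D3:**
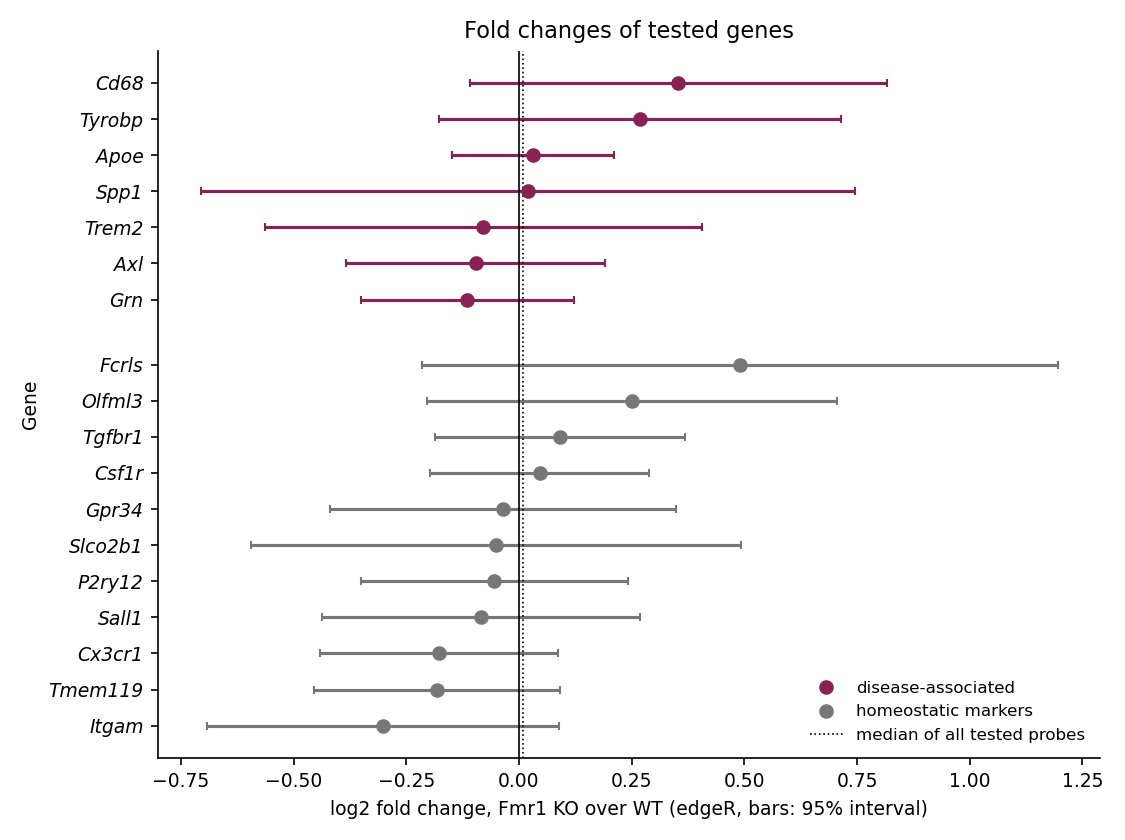
The log2 fold change of *Fmr1* KO over WT for the 7 tested disease-associated genes and the 11 tested homeostatic markers, with 95% intervals from edgeR. Every interval includes 0, the narrowest of the disease-associated genes is that of *Apoe* (-0.15 to 0.21) and the widest that of *Spp1* (-0.71 to 0.74).

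A further comparison set each tested member against the homeostatic markers of the same lane, as the log2 ratio of its raw count to their geometric mean, which does not depend on any lane factor. It asks whether a member differed relative to the microglial signal of its sample. The difference between *Fmr1* KO and WT means was 0.35 for *Cd68*, 0.29 for *Tyrobp*, 0.12 for *Spp1*, 0.02 for *Apoe*, -0.06 for *Trem2*, -0.10 for *Axl* and -0.13 for *Grn*. Two-sided exact permutation tests over the 6 mice gave p = 0.2 for *Cd68* and *Tyrobp* and 0.4 to 0.8 for the others, and at least 0.7 after Benjamini-Hochberg adjustment over the 7 members. With 3 mice against 3 this test cannot give a p below 0.1. For *Cd68* the log2 ratio was -1.93, -1.58 and -1.85 in the WT mice and -1.42, -1.62 and -1.26 in the *Fmr1* KO mice, so that *Fmr1* KO replicate 2 fell just below WT replicate 2. The signs of the smaller differences depended on the reference. With *P2ry12*, *Tmem119* and *Cx3cr1* alone as the reference, the difference was 0.083 for *Trem2*, 0.045 for *Axl* and 0.013 for *Grn*, and 0.49 for *Cd68*, 0.43 for *Tyrobp*, 0.26 for *Spp1* and 0.16 for *Apoe*. With this reference the exact permutation p for *Cd68* was 0.1, the smallest possible, and 0.467 after Benjamini-Hochberg adjustment over the 7 members. Each *Fmr1* KO mouse was then above all WT mice for *Cd68*. How many of all tested probes separate on this ratio was not computed. The 3 reference genes themselves had log2 fold changes of -0.06, -0.18 and -0.18, and every member's difference was higher than with the 11 markers. The part of the reference in the *Cd68* separation was not tested.

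**Figure D4:**
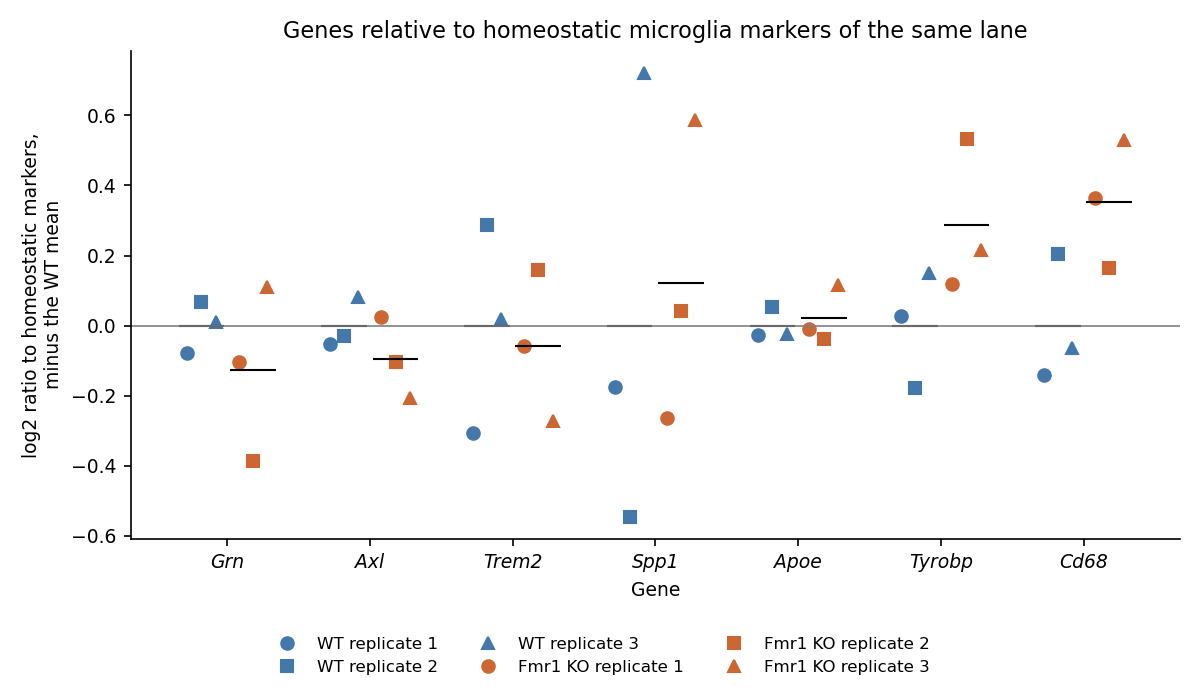
The log2 ratio of each tested gene to the geometric mean of 11 homeostatic markers of the same lane, with the WT mean of the gene set to 0, for 3 WT and 3 *Fmr1* KO mice. Black lines are group means, the groups overlap for every gene, and the *Fmr1* KO mean lies 0.35 above the WT mean for *Cd68* and 0.13 below it for *Grn*, which turns to 0.013 above it with *P2ry12*, *Tmem119* and *Cx3cr1* alone as the reference.

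The other genes of this state and of its signaling were examined as lists. Of 23 genes of TREM2 and DAP12 signaling, 19 had a probe and 14 were tested, and none passed the adjusted threshold or an unadjusted p under 0.05. The median log2 fold change was -0.0047. *Cd33*, encoding a sialic acid receptor that restrains microglial uptake, had 20.6, 23.9 and 19.4 normalized counts in WT mice, against 23.0, 49.8 and 34.9 in *Fmr1* KO mice, giving a fitted log2 ratio of 0.66 ± 0.31 (standard error), with an edgeR adjusted p of 0.602. *Pik3cg*, encoding a catalytic subunit of phosphoinositide 3-kinase, had 27.2, 27.9 and 23.0 in WT mice, against 19.9, 17.2 and 16.9 in *Fmr1* KO mice, giving a fitted log2 ratio of -0.51 ± 0.25 (standard error), with an edgeR adjusted p of 0.630. For *Syk*, encoding the kinase recruited by DAP12, the log2 fold change was -0.54 ± 0.36 (standard error), and for *Pik3ca* it was -0.12 ± 0.08 (standard error), both with an adjusted p of 0.740 from edgeR. The raw counts of *Cd33*, *Pik3cg* and *Syk* were 4 to 32, near those of the Y-linked probes.

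Of 22 further genes of the disease-associated state only 4 had a probe and 2 were tested. The lysosomal protease gene *Ctss* had a log2 ratio of -0.10 ± 0.08 (standard error) and the growth factor gene *Csf1* of -0.04 ± 0.14 (standard error), with adjusted p of 0.803 and 0.977 from edgeR. For *Ctss* the highest *Fmr1* KO mouse (386) was just below the lowest WT mouse (387). Such an arrangement was seen in 6.82% of all tested probes, and overlap under other lane sizes was not examined for *Ctss*. Of 17 listed clearance receptors and TAM partners, 10 had a probe and 9 were tested, none with an unadjusted p under 0.05, and the median log2 fold change was 0.01. In that list *Fcgr3*, encoding an Fc receptor, had a log2 ratio of -0.30 ± 0.22 (standard error), and *Cd14*, encoding the lipopolysaccharide co-receptor, of 0.24 ± 0.30 (standard error), with adjusted p of 0.766 and 0.907 from edgeR.

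Since *Itgax*, *Clec7a*, *Cd68* and *Spp1* are also expressed by macrophages and blood leukocytes, markers of those cells were examined. Of 25 listed genes 16 had a probe, and *Ptprc*, encoding CD45, was the 1 gene that passed the count minimum. It had a log2 ratio of 0.33 ± 0.29 (standard error), with an edgeR adjusted p of 0.812. The summed level of the 16 probes was 133 to 153 normalized counts in WT and 117 to 278 in *Fmr1* KO mice. The highest value was that of *Fmr1* KO replicate 2, the lane with the factor of 1.72. That factor also scales up background, and before scaling the median of all untested probes was 12 raw counts there and 9 to 12 elsewhere. Since all but *Ptprc* failed the count minimum, the sum is not read as a leukocyte level. The defining markers *Cd3e*, *Ly6g* and *Ccr2* had 4 to 18 raw counts, within the range of the Y-linked probes.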

How the data were processed

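The authors counted the probes of the nCounter panel with nSolver and deposited 2 tables, a raw count per probe and lane, not normalized, and a signal that is the raw count times 1 factor per lane, based on housekeeping genes per the paper's methods. The deposited raw table also holds the percent of lanes above a threshold. That column was used only as a description. Samples were grouped by the genotype label. Replicate numbers count mice within a genotype, and the deviations of same-numbered mice from their group means did not pair (correlations -0.06, -0.08 and 0.10). No 2 mice of a group differed by less than sampling noise (chi-square over degrees of freedom at least 2.72). Intervals reflect 3 mice per group.

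Of the 787 probes 772 were named by RefSeq accession and 15 by the table's symbol (GRCm38.p6). For the members the numbers were 8 and 2. The files name no genome build, so coordinates are not given. Lane factors were the median ratio of both tables over probes with at least 100 raw counts. Probes with over 20 raw counts in at least 3 lanes were fitted on raw counts with edgeR 4.0.16 (glmQLFit and glmQLFTest, R 4.3.3), with lane sizes set by these factors and p-values adjusted by Benjamini-Hochberg over 601 probes. The standard error is the log2 fold change over the square root of F. Scripts were tested on simulated data. Alternatives were other lane sizes (TMM, median-ratio, homeostatic markers), no filter, a mean raw count of at least 50 and background subtraction. Other tests were DESeq2 1.42.0, limma 3.58.1 and a t-test on log2 normalized counts. Further alternatives were the authors' signal table, a replicate block, 3 homeostatic markers as the reference and leaving out each mouse with the tested probes kept.

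The genes named are all 10 members and, of each other list, up to 4 tested genes with the smallest p. *P2ry12*, the Y-linked, leukocyte and peptide genes and *Prl* were named outside that rule or after their values were seen. Members and lists were chosen with earlier results of these data known.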

Additional observations from a re-analysis of the deposited data

How the results depend on the processing

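No member passed the adjusted threshold under any of the 18 alternatives, and the median member log2 fold change stayed between -0.12 and 0.10. It was 0.03 with the replicate block, which changed no call. At an unadjusted p under 0.05, 1 member was counted with the t-test (*Cd68*). When a mouse was left out, 0 to 1 was counted (*Spp1* without WT replicate 3). Of all 601 tested probes, 45 were counted with the t-test and 52 without WT replicate 3. These single members are therefore not read as a result about the list. After adjustment 0 of the 601 probes passed with the t-test, so that setting could not set the members apart. The number of members whose groups do not overlap was 0 with TMM, median-ratio and homeostatic microglia lane sizes, and 1 to 2 when a mouse was left out. The number past the limits of 1.2 and 0.8 was 1 with TMM and with median-ratio lane sizes. It was 1 to 3 when a mouse was left out. The shares of all tested probes with either trait were not computed under these settings, so neither count is read as a result about the members. With 2 mice against 3, groups separate more readily than with 3 against 3. The log2 fold changes of *Cd68*, *Tyrobp* and *Grn* kept their direction under these 18 alternatives, apart from *Cd68* under the minimum of 50 on the mean raw count, where it was not tested. *Apoe* and *Spp1* turned to -0.011 and -0.013 with TMM and to -0.0095 and -0.0093 with median-ratio lane sizes. When each mouse was left out, log2 fold changes ran from -0.019 to 0.10 for *Apoe*, -0.16 to 0.0040 for *Axl*, -0.24 to 0.037 for *Trem2* and -0.25 to 0.55 for *Spp1*. Relative to *P2ry12*, *Tmem119* and *Cx3cr1* alone in place of the 11 homeostatic markers, the differences turned to 0.083 for *Trem2*, 0.045 for *Axl* and 0.013 for *Grn*. The cause of these changes was not tested. With 3 mice a group, the intervals of *Cd68*, *Tyrobp* and *Spp1* include rises of over 1.5-fold, and counts near the Y-linked probes limit *Cst7*, *Clec7a* and *Itgax*.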
